A study of Mus musculus with 2 samples.

Results

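The BCL2 family decides whether the outer membrane of the mitochondrion stays closed or is opened, the step that commits a cell to the intrinsic pathway of apoptosis. 10 of its genes were followed here, chosen by name: the survival genes Bcl2, Bcl2l1, Bcl2l2 and Mcl1, the pore-forming effectors Bax and Bak1, the BH3-only genes Bad, Bid and Bbc3, and the atypical member Bnip3. They are 10 of the 55536 annotated genes measured, and all 10 were found in the gene table and in both transcript tables of each library. The tissue was a layer of the hippocampus from 36-day-old B6CASTF1/J females, a first cross between C57BL/6J and CAST/EiJ, with no treatment, transgene or second genotype named in the labels. Total RNA, 300 ng per library with ERCC spike-in RNAs, was sequenced in 2 libraries, biological replicates 1 and 2. Each has a biosample of its own but both carry 1 shared donor identifier, so the spread between them may not be that between separate mice. With 1 group there is no comparison between conditions and no p-value, and the values below are levels with the spread between these libraries.

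Survival proteins of the family hold the effectors BAX and BAK in check. BH3-only proteins are switched on by stress signals, bind into a groove of the survival proteins or onto the effectors, and so release or trigger the pore, after which cytochrome c leaves the mitochondrion and caspases are activated. Developing neurons depend on this balance for their survival, and in the adult brain the pathway is held down.

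The binding between these proteins runs through the BH3 domain, a short helix with a conserved leucine and, after 3 residues of any kind, a small residue followed by aspartate. The codons for that core were located in the principal coding sequence of each gene to show what the 10 genes have in common at the level of the RNA measured. The runs below are coding-strand sequences of 42 bases in the 5′ to 3′ direction from the GENCODE M21 transcripts of the C57BL/6J reference, from which the CAST/EiJ allele of the hybrid may differ. Capitals mark the leucine codon and the codons of the small residue and aspartate.
Bcl2: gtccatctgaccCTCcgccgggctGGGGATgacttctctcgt
Bcl2l1: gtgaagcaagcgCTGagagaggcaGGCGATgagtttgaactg
Mcl1: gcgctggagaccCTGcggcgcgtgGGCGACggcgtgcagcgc
Bax: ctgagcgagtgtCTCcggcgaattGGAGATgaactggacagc
Bak1: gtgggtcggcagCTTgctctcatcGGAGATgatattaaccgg
Bid: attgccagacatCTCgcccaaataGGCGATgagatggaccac
Bad: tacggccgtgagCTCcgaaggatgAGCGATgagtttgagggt
Bbc3: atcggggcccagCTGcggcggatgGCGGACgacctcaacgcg
Bnip3: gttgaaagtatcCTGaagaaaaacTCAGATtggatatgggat
The glycine and aspartate form was found once each in Bcl2 (leucine at codon 94), Bcl2l1 (codon 90), Mcl1 (codon 194), Bax (codon 63), Bak1 (codon 76) and Bid (codon 90). With serine or alanine allowed in place of glycine, Bad had it at codon 151, Bbc3 at codon 141 and Bnip3 at codon 103. Bcl2l2 held neither form, which says only that these letters are not in its coding sequence. The glycine form occurred in 13.2% and the wider form in 33.6% of 21767 principal coding sequences, so a match by itself is a description and not a domain call.

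The libraries held 32443497 expected counts (replicate 1) and 30125183 expected counts (replicate 2), with those of the spike-ins. The spread over 18246 genes, as edgeR's common dispersion, was a biological coefficient of variation of 0.0899. The defining markers of neurons were present, with Snap25 at 851 and 725 TPM and Rbfox3 at 106 and 98.9 TPM in replicates 1 and 2. All 7 markers of choroid plexus, the secretory epithelium next to the hippocampus, were higher in replicate 2 by over 2-fold, their summed level being 26.4 TPM in replicate 1 and 1282 TPM in replicate 2. The 3 markers of oligodendrocytes, the myelinating cells, were all lower in replicate 2 (median log2 ratio -0.36), and the 3 markers of CA3 pyramidal neurons likewise with -0.31. Scaled to the spike-ins, these medians were smaller, at -0.09 for oligodendrocytes and -0.05 for CA3 neurons. What part these cell types had in the differences between libraries given below was not tested.

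Each of the 10 genes reached 1 TPM in both libraries and was called detected, where 57.6% of 22028 protein-coding genes were. TPM divides the reads of a transcript by its length and scales them to the whole library, so levels of different genes can be set side by side on it. The mean levels ran from 3.62 TPM for Bcl2 to 49.5 TPM for Bcl2l1. Over the 10 genes the median level was 20.2 TPM (replicate 1) and 19.9 TPM (replicate 2), beside a median of 14.7 TPM over the 12679 detected protein-coding genes. The authors estimated abundance by 2 routes. The first gives expected counts and TPM per gene and per transcript, with bounds on TPM whose level is not stated, and values below come from it unless the second, made straight from the reads, is named. The 4 survival genes together made 124.9 and 126.1 TPM in replicates 1 and 2. The 2 effectors together made 37.6 and 36.7 TPM, and the 3 BH3-only genes 28.1 and 26.8 TPM. These sums cover only the 10 genes, and other BH3-only genes such as Bmf are not in them. In the second quantification the same sums were 215.9 and 232.4 TPM for the survival genes, 70.7 and 70.7 TPM for the effectors, and 54.9 and 56.6 TPM for the BH3-only genes, so the order of the 3 sums was the same.

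**Figure D1:**
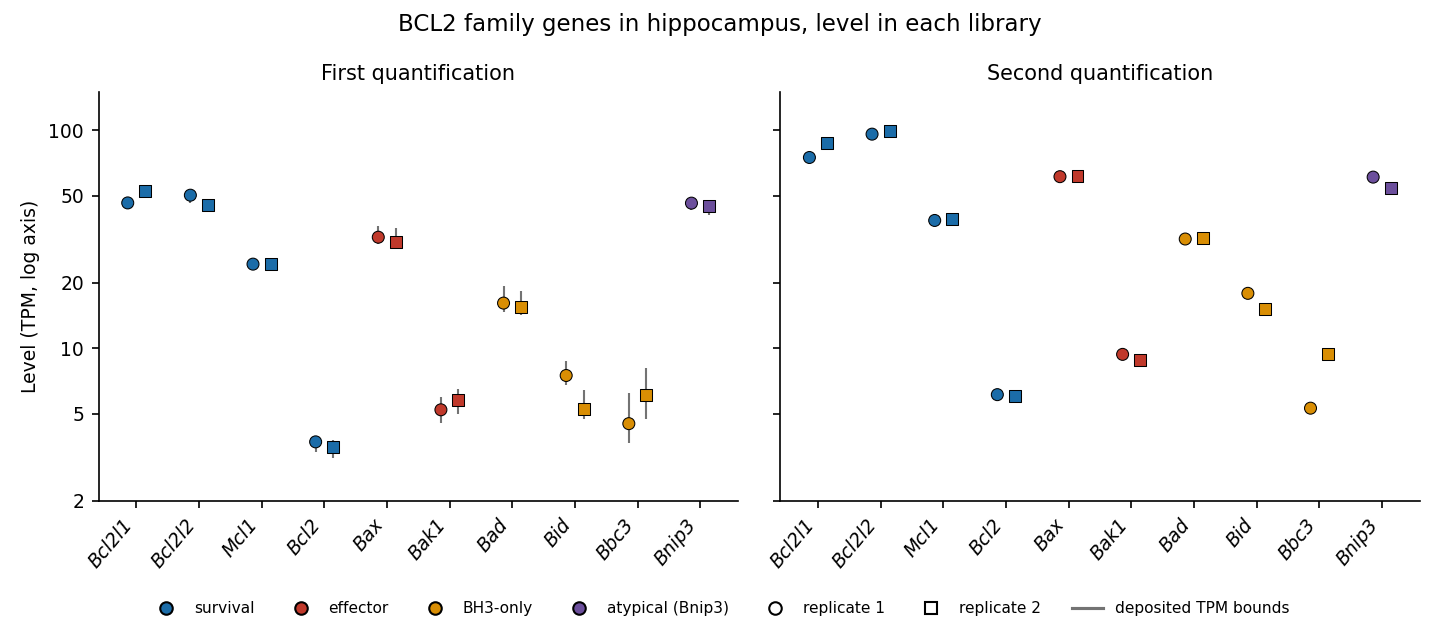
Level of each BCL2 family gene in TPM (log axis), in the first quantification (left) and the second (right). Circles are replicate 1, squares replicate 2, colours the role, and grey bars the TPM bounds deposited for the first quantification. Bcl2l1, Bcl2l2 and Bnip3 stand highest on the left, between 44.8 and 52.5 TPM, and Bcl2 lowest, at 3.52 to 3.72 TPM.

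In the order of mean levels, Bcl2l1, Bcl2l2 and Bnip3 came first, then Bax, Mcl1, Bad, Bid, Bak1, Bbc3 and Bcl2. Of the 9 neighbouring pairs in that order, 5 did not overlap between libraries. Bnip3 lay above Bax, Bax above Mcl1, Mcl1 above Bad, Bad above Bid, and Bbc3 above Bcl2. Neighbours whose libraries overlapped were Bcl2l1 and Bcl2l2, Bcl2l2 and Bnip3, Bid and Bak1, and Bak1 and Bbc3. The second quantification had Bcl2l2 at the top, followed by Bcl2l1, Bax and Bnip3. Bax, at 61.3 and 61.9 TPM in replicates 1 and 2, lay above Bnip3 there, at 61.0 and 54.7 TPM, and Bbc3 and Bcl2 overlapped. Bcl2l2 lay above Bnip3, and Bid above Bak1, without overlap there.

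Bcl2l1 (ENSMUSG00000007659.18, mm10 chromosome 2, 152780668 to 152831728, minus strand) encodes BCL-XL, a survival protein on which mature neurons are known to depend. It had 46.5 TPM in replicate 1 and 52.5 TPM in replicate 2 (mean 49.5 ± 4.26, SD, n = 2), from 2345 and 2446 expected counts. The deposited bounds on the level were 43.7 to 48.3 TPM in replicate 1 and 49.1 to 54.6 TPM in replicate 2, so the 2 ranges did not meet. The bounds are given per library, and the share of all genes whose ranges do not meet is not given here. On counts scaled to library size (TMM) the log2 ratio, replicate 2 over replicate 1, was 0.14, a 1.10-fold difference that 28.8% of the 12651 compared genes, those averaging at least 100 counts, equalled or exceeded. The gene stood at the 84.9th percentile of detected protein-coding genes by level.

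The transcripts of Bcl2l1 with the 233-codon reading frame, Bcl2l1-201 and Bcl2l1-202, took 77.9% and 75.7% of the gene's TPM in replicates 1 and 2. The second quantification gave them 73.1% and 70.7%. A reading frame of 209 codons, in Bcl2l1-205 and Bcl2l1-206, took 7.30% and 7.66% in the first and 7.04% and 6.86% in the second. Bcl2l1-203, whose annotated coding sequence is open-ended, took 10.2% and 8.46% in the first and 19.9% and 15.4% in the second. The short death-promoting form BCL-XS, made by splicing at an earlier site, has no transcript of its own among the 9 annotated ones and was not analysed here.

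Bcl2l2 (ENSMUSG00000089682.10, chromosome 14, 54883377 to 54888234, plus strand) encodes the survival protein BCL-W. It stood at 50.4 TPM in replicate 1 and 45.7 TPM in replicate 2 (mean 48.0 ± 3.34, SD, n = 2). Its libraries overlapped those of Bcl2l1, and neither gene was higher in both. Bcl2l1 over Bcl2l2 was 0.922 in replicate 1 and 1.15 in replicate 2. In the second quantification the ratio was 0.781 and 0.883, so there Bcl2l2 was higher in both libraries. The log2 ratio of its counts, 3396.75 and 3140.4, was -0.04. A gene on the same strand, Gm20521, overlaps Bcl2l2 over 4794 bases, and reads were divided between them: Gm20521 was given 156.42 and 166.23 counts in the first quantification and 0 in both libraries in the second.

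Bcl2l2-201, the 193-codon form, led in both quantifications, with 79.4% and 83.6% of the gene's TPM in the first and 63.1% and 59.4% in the second. Most of the rest in the second lay in Bcl2l2-205, a 645-base transcript with an open-ended coding sequence, at 32.5% and 34.0% of TPM. Those shares of TPM came from 4.57% and 5.09% of the gene's estimated counts, since TPM divides by length. In the first quantification Bcl2l2-205 took 12.002% and 6.28% of TPM on 2.29% and 1.12% of the counts.

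Mcl1 (ENSMUSG00000038612.16, chromosome 3, 95658788 to 95663176, plus strand) encodes a survival protein that is made and degraded quickly. Its libraries lay close together, with 24.33 TPM in replicate 1 and 24.37 TPM in replicate 2 (mean 24.35 ± 0.028, SD, n = 2), from 1900 and 1813 counts. Its log2 ratio was 0.01, a 1.01-fold difference, and 0.27 on the spike-in scale. Among its annotated transcripts, all of its TPM lay in Mcl1-201, the 331-codon survival form, in both libraries and to within rounding in both quantifications. Each annotated transcript of Mcl1 holds the same 248-base exon, so a form that skips it could take no share here. Mcl1-202, with 285 codons, was at 0 counts in both libraries in the first.

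Bcl2 (ENSMUSG00000057329.7, chromosome 1, 106538178 to 106714274, minus strand), the survival gene the family is named for, was the lowest of the 10 in the first quantification. In the second Bbc3, at 5.31 and 9.42 TPM, overlapped it at 6.13 and 6.03 TPM. In the first Bcl2 had 3.72 TPM in replicate 1 and 3.52 TPM in replicate 2 (mean 3.62 ± 0.14, SD, n = 2). These came from 580 and 500 counts, spread over a transcript of 7191 bases. Bcl2 stood at the 14.8th percentile of detected protein-coding genes. In TPM, Bcl2l1 was 12.5 and 14.9 times Bcl2 in replicates 1 and 2, and Bcl2l2 13.6 and 12.98 times. In the second quantification Bcl2l1 was 12.3 and 14.5 times Bcl2, and Bcl2l2 15.7 and 16.5 times.

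The 236-codon reading frame of Bcl2, in Bcl2-201, took 89.2% and 82.7% of its TPM. The 199-codon frame of the single-exon transcript Bcl2-202, which lacks the end of the protein encoded after the intron, took 10.8% and 17.3%. The second quantification gave Bcl2-202 12.7% and 20.7%, so both put it higher in replicate 2, on 25.79 and 37.74 counts in the first.

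Bax (ENSMUSG00000003873.11, chromosome 7, 45461697 to 45466898, minus strand) encodes an effector that moves from the cytosol to mitochondria when activated. It was measured at 32.3 TPM in replicate 1 and 30.9 TPM in replicate 2 (mean 31.6 ± 1.04, SD, n = 2), from 625 and 579.49 counts. The libraries differed 1.02-fold, and the log2 ratio was -0.03. Bax exceeded Bcl2 8.69 and 8.77 times in TPM in replicates 1 and 2, and 10.01 and 10.3 times in the second quantification. It exceeded Bak1, the other effector, 6.20 and 5.31 times, and 6.54 and 7.01 times in the second.

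The 192-codon form of Bax, Bax-201, held 51.4% and 54.6% of its TPM in the first quantification and 52.5% and 51.4% in the second. Bax-203, whose first exon keeps the first intron and whose coding sequence is open-ended, held 33.5% and 37.5% in the first and 35.3% and 35.6% in the second. The 2 quantifications thus placed each of these shares within 5 percentage points of the other. Bax-206, a retained-intron transcript with no coding sequence, held 5.78% and 5.05% in the first and 7.86% and 12.2% in the second.

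Bak1 (ENSMUSG00000057789.14, chromosome 17, 27019810 to 27029009, minus strand) encodes BAK, the effector that sits in the mitochondrial outer membrane. Bak1 reached 5.22 TPM in replicate 1 and 5.81 TPM in replicate 2 (mean 5.52 ± 0.42, SD, n = 2), from 230 and 239 counts. The log2 ratio was 0.13. By level it stood at the 22.8th percentile of detected protein-coding genes. Both annotated copies of Ggnbp1 lie across the gene on the opposite strand, with 84.37 and 122.23 counts for one and 47.88 and 40.52 counts for the other in replicates 1 and 2. Whether counting used the strand is not given in the sources used here, so reads of these genes may be mixed.

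Mouse neurons are known to include in Bak1 a microexon that shifts the reading frame and sends the RNA to nonsense-mediated decay, the pathway that removes RNAs with an early stop codon. The annotation holds this form as Bak1-201, with a 20-base exon 5 of 7 at chr17:27021663-27021682 (mm10, minus strand) that no other Bak1 transcript has. The full-length 209-codon form is Bak1-202. The runs below, shown because the change in reading frame can be read from them, start 30 bases before the splice junction. They are coding-strand transcript sequence, 142 bases with the exon up to its early stop codon and 60 bases without it, and capitals mark the microexon.
Bak1-201, microexon included: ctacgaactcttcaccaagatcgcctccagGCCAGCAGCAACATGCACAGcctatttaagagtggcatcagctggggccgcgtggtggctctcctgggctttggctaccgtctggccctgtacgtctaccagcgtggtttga
Bak1-202, microexon skipped: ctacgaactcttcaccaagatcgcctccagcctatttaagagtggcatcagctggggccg
The 20 bases leave a remainder of 2 when divided into codons. The first 114 codons are alike in both forms, after which Bak1-201 runs for 37 more codons and Bak1-202 for 95. The stop codon of Bak1-201 ends 89 bases before the last exon junction. Introns of 756 bases before and 315 bases after separate the microexon from its neighbours.

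In the first quantification Bak1-201 led the gene, with 4.52 TPM in replicate 1 and 4.41 TPM in replicate 2, or 86.6% and 75.8% of the gene's TPM. Its deposited bounds were 3.18 to 5.10 TPM and 2.95 to 5.11 TPM. Bak1-202 was at 0 TPM in both libraries there, with deposited upper bounds of 0.501 and 0.613 TPM. Bak1-204, also annotated for nonsense-mediated decay but without the microexon, took 13.4% and 20.8%. In the second quantification the gene's TPM was shared between the forms, with 42.5% and 46.4% for Bak1-201 against 44.4% and 53.6% for Bak1-202. The TPM scales of the quantifications differ, so their levels were set side by side after rescaling over the protein-coding genes both hold. On that scale Bak1-201 had 10.3 and 10.4 TPM in the first and 5.09 and 5.28 TPM in the second. Bak1-202 was at 0 in the first and at 5.31 and 6.10 TPM in the second. Counts differed likewise, with 199.58 and 185.12 for Bak1-201 in the first and 110.6 and 108.1 in the second. Both quantifications thus gave reads to the microexon form in both libraries, and they differed over the level of each form.

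**Figure D2:**
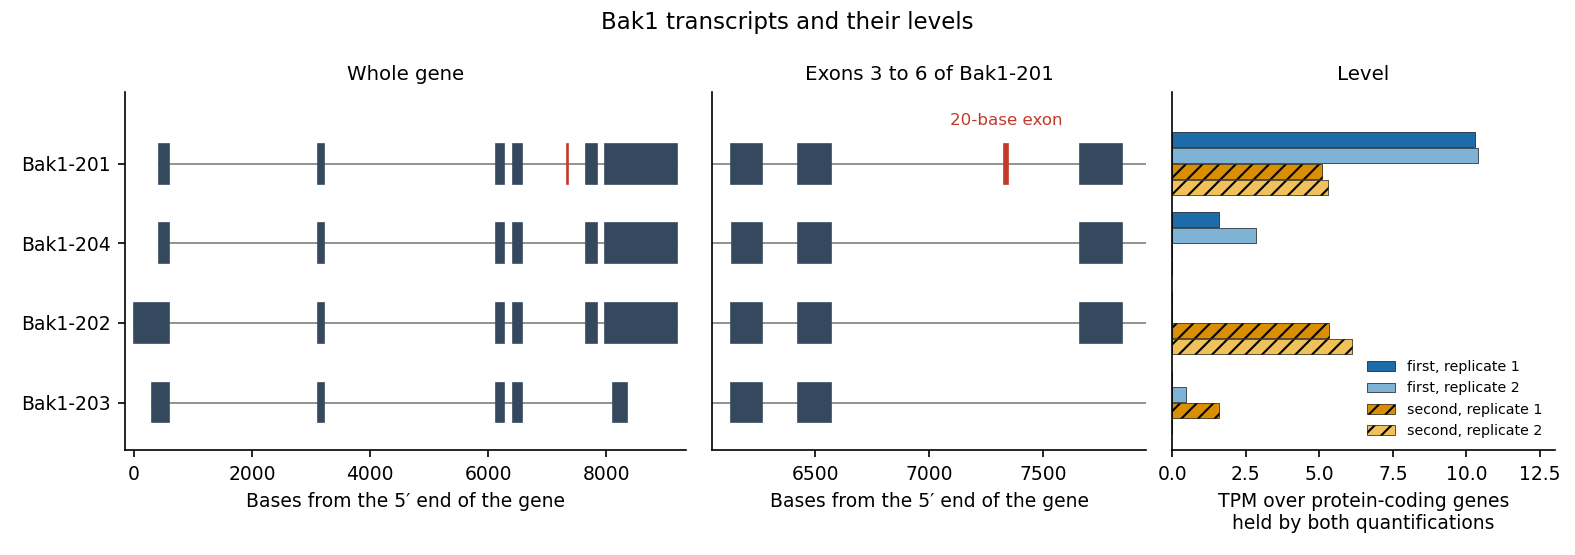
Exons of the 4 annotated Bak1 transcripts against distance in bases from the 5′ end of the gene (left, whole gene; middle, exons 3 to 6 of Bak1-201), with the 20-base microexon in red, and the level of each transcript by library and quantification (right), in TPM rescaled over the protein-coding genes both hold. Bak1-201 stands at 10.3 and 10.4 TPM in the first quantification and at 5.09 and 5.28 TPM in the second, while Bak1-202 is at 0 in the first and at 5.31 and 6.10 TPM in the second.

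The forms also differ at the 5′ end, where exon 1 has 168 bases in Bak1-201 and 599 bases in Bak1-202, so their estimates rest on that end as well as on the microexon. Bak1 was the only one of the 10 genes led by a transcript annotated for nonsense-mediated decay in the first quantification, where 2.27% of 11477 detected protein-coding genes with 2 or more transcripts were. In the second none of the 10 was, and 2.91% of 11476 such genes were. Read counts over the splice junctions of the microexon were not analysed here.

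**Figure D3:**
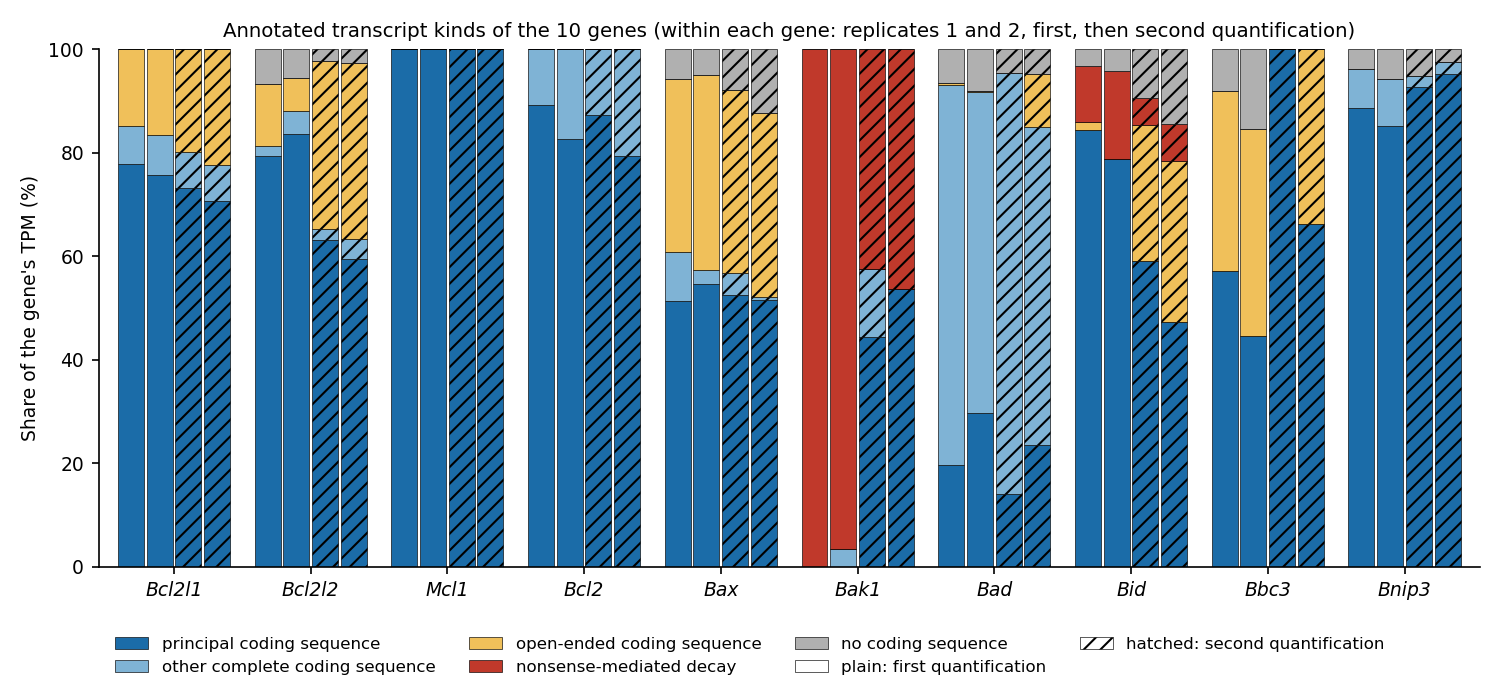
Share of each gene's TPM, in percent, taken by 5 kinds of annotated transcript. The 4 bars of a gene are replicates 1 and 2 in the first quantification (plain) and replicates 1 and 2 in the second (hatched). Mcl1 is all principal coding sequence, Bak1 is nearly all decay transcripts in the first quantification but 42.5% and 46.4% in the second, and Bad lies mostly in complete frames other than the 204-codon one.

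Bad (ENSMUSG00000024959.14, chromosome 19, 6941861 to 6951899, plus strand) encodes a BH3-only protein that growth-factor signalling keeps inactive by phosphorylation. Of the 3 BH3-only genes among the 10 it was the highest. It had 16.1 TPM in replicate 1 and 15.4 TPM in replicate 2 (mean 15.8 ± 0.48, SD, n = 2), from 365 and 361 counts. The libraries differed 1.04-fold. Gpr137 overlaps Bad on the opposite strand over 620 bases and had 1529 and 1437 counts.

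Bad transcripts with the 162-codon frame, Bad-202, Bad-206 and Bad-209, together took 73.5% and 62.0% of its TPM in the first quantification and 81.3% and 61.5% in the second. The 204-codon frame of Bad-201 took 19.6% and 29.7% in the first and 14.1% and 23.5% in the second. The 2 quantifications named different leading transcripts within the 162-codon group. Bad-202 took 61.3% and 58.6% in the first and 35.5% and 3.77% in the second, while Bad-206 took 4.65% and 3.43% in the first and 28.9% and 34.5% in the second. By the mean of both libraries, Bad was the only one of the 6 genes at 10 TPM or more whose leading transcript differed, where this held for 24.2% of 7170 protein-coding genes at that level. Among all 10 genes the leading transcript was the same in 8, Bak1 and Bad being the exceptions. In replicate 1 alone Bad-202 led in both, and the exceptions were Bak1 and Bcl2l1, which Bcl2l1-202 led in the second at 39.1%.

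Bid (ENSMUSG00000004446.12, chromosome 6, 120891930 to 120916853, minus strand) encodes a BH3-only protein that caspase-8 cleaves, which ties death receptors at the cell surface to the mitochondrion. Its level was lower in replicate 2 on each scale tried, with 7.50 TPM in replicate 1 and 5.29 TPM in replicate 2 (mean 6.40 ± 1.56, SD, n = 2), from 359 and 244 counts. The deposited bounds, 6.81 to 8.70 TPM in replicate 1 and 4.73 to 6.42 TPM in replicate 2, did not meet. For these too, the share of all genes whose ranges do not meet is not given here. The log2 ratio was -0.48, a 1.39-fold difference, and 2.49% of the 12651 compared genes were at least as far apart. On these TMM-scaled counts Bid differed most of the 10. Scaled to the spike-ins its ratio was -0.22, and there Bbc3 at 0.52, Bcl2l1 and Bak1 at 0.40 each and Bad at 0.33 were further apart. So were Mcl1 at 0.27 and Bax and Bcl2l2 at 0.23 each, while Bnip3 at 0.18 and Bcl2 at 0.13 were less far apart. On estimated counts of the second quantification Bid had -0.44. The oligodendrocyte markers were lower in the same library, with ratios from -0.51 for Mobp to -0.35 for Mbp, and so were the CA3 markers. On the spike-in scale the median was -0.09 for the oligodendrocyte markers and -0.05 for the CA3 markers. What part these cells had in the value of Bid was not tested. In bulk tissue, fewer cells of a type and less RNA per cell cannot be told apart.

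Bid-201, the 195-codon form, had 6.34 and 4.16 TPM in the first quantification, which put it lower in replicate 2. Bid-204, which has the same reading frame with an added 3′ exon and is annotated for nonsense-mediated decay, had 0.81 and 0.90 TPM. In the second quantification Bid-203, a 535-base transcript with an open-ended frame, took 26.3% and 31.1% of TPM on 4.15% and 5.82% of the gene's counts. In the first it took 1.60% and 0%. Bcl2l13, another member of the family, overlaps Bid over 913 bases on the opposite strand and had 1508 and 1484 counts.

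Bbc3 (ENSMUSG00000002083.13, chromosome 7, 16308393 to 16318205, plus strand) encodes PUMA, a BH3-only protein whose gene is switched on by p53. Of the 10 it rested on the fewest reads, 125 and 142 counts, and had 4.51 TPM in replicate 1 and 6.09 TPM in replicate 2 (mean 5.30 ± 1.12, SD, n = 2). The deposited bounds, 3.67 to 6.23 TPM and 4.72 to 8.13 TPM, overlapped. The log2 ratio on scaled counts was 0.26, a 1.20-fold difference, which 9.52% of the compared genes equalled or exceeded. Bbc3-201, the 193-codon form, took 57.2% and 44.7% of its TPM in the first quantification and 100% and 66.2% in the second. The rest in the second lay in Bbc3-202, a 485-base open-ended transcript, at 0% and 33.8%, on 0% and 5.38% of the counts. In the first Bbc3-202 took 34.8% and 39.9% of TPM, on 11.4% and 14.8% of the counts.

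Bnip3 (ENSMUSG00000078566.8, chromosome 7, 138890836 to 138909519, minus strand) encodes an outer-membrane protein induced by low oxygen and best known as a receptor for the removal of mitochondria by autophagy. It had 46.4 TPM in replicate 1 and 44.8 TPM in replicate 2 (mean 45.6 ± 1.11, SD, n = 2), from 1666.23 and 1488.63 counts. The libraries differed 1.06-fold, with a log2 ratio of -0.08. It was the only one of the 10 with fewer estimated counts in the second quantification than in the first in both libraries by over 100, at 1376.96 and 1202.24. Bnip3-201, the 187-codon form, led with 88.7% and 85.1% of TPM in the first and 92.8% and 95.3% in the second.

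Bnip3 has near-identical copies, and its level is uncertain to that extent. The pseudogene Gm16439 matches it at 98.9% over 564 bases and was given 128.66 and 105.53 counts, in the first quantification and 97.7 and 101.5 counts in the second. Gm14506, at 93.4% over 544 bases, was given 0 counts in both libraries in the first and 35.3 and 27.3 in the second. AC160336.1, a lincRNA that matches Bnip3 at 98.3% over 858 bases on the opposite strand, was given 16 and 22 counts in the first and 2938 and 3496 in the second. How many of these lie in the matching bases was not tested. Mcl1 has a shorter match, Gm20432 at 91.8% over 245 bases, which was given 4 and 2 counts in the first and 0 in the second.

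Between the libraries, none of the 10 genes differed over 2-fold, where 0.466% of 12651 genes did. 5 of the 10 were higher and 5 lower in replicate 2, and the median log2 ratio was -0.01, the same as over all compared genes. Scaling to 41 spike-in RNAs moves the ratio of every gene up by 0.26, and on that scale 9 of the 10 were higher in replicate 2 and Bid lower. The signs of Bax, Bcl2, Bcl2l2 and Bnip3 turn with that shift, so no direction is given for them.

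**Figure D4:**
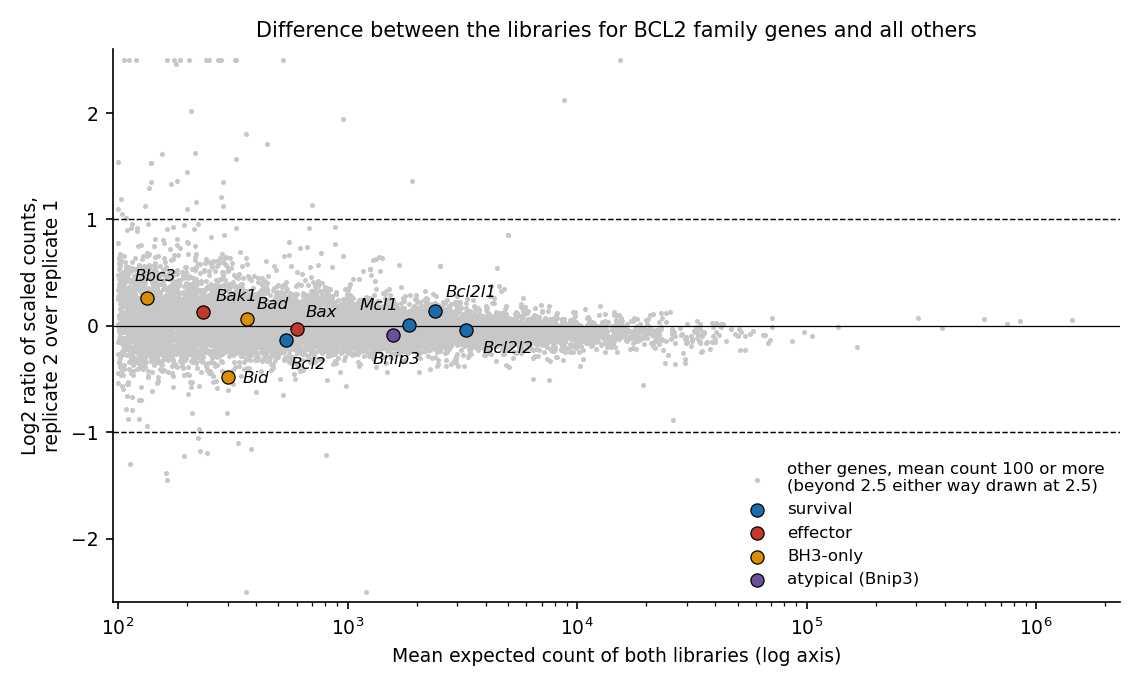
Log2 ratio of library-scaled counts, replicate 2 over replicate 1, against the mean expected count of both libraries (log axis) for genes averaging at least 100 counts. Grey points are other genes, coloured points the BCL2 family by role, and dashed lines mark 2-fold. The family lies between -0.48 for Bid and 0.26 for Bbc3, inside the dashed lines.

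Set against each other on the protein-coding genes both hold, the quantifications were within 2-fold for all 10 genes, where 0.957% of 12645 detected protein-coding genes were over 2-fold apart in both libraries. The log2 ratio, first over second, lay furthest from 0 for Bid, at -0.42 and -0.65 in replicates 1 and 2, for Bnip3, at 0.44 and 0.58, and for Bbc3, at 0.60 and 0.24. On the TPM as deposited, Bid was over 2-fold apart, with 7.50 and 5.29 TPM in the first and 17.9 and 15.2 TPM in the second.

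Of 16 other BCL2 family genes, 8 were detected, with a median over all 16 of 1.03 and 1.28 TPM in replicates 1 and 2. The highest were Becn1, a BH3-containing autophagy gene, at 95.1 and 90.9 TPM, Bnip3l, the close relative of Bnip3, at 69.0 and 62.6 TPM, and Bok, an effector-like gene, at 31.9 and 26.1 TPM. Bok also serves here as a marker of CA3 neurons, and its log2 ratio was -0.36. Those not detected were Bmf, Bcl2l15, Bcl2a1a, Bcl2a1b, Bcl2a1d, Bcl2l10, Bik and Bcl2l14. Bmf, a BH3-only gene, had 0.78 and 1.42 TPM, and Bcl2l14 had 0 counts in both libraries. None of the 7 that average at least 100 counts differed over 2-fold.

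Downstream, 6 of 7 caspase and apoptosome genes were detected, with a median of 5.6 and 6.3 TPM. Cytochrome c, Cycs, led at 18.7 and 16.9 TPM, then Casp2 at 9.47 and 10.7 TPM and the initiator Casp9 at 8.46 and 10.3 TPM. Casp8, the death-receptor caspase that cleaves BID, had 0.95 and 1.28 TPM. Of 9 genes for caspase inhibitors and proteins released from mitochondria, 7 were detected, led by Birc6 at 46.5 and 52.2 TPM, Xiap at 20.4 and 21.9 TPM and Htra2 at 18.8 and 19.8 TPM. Birc5, a cell division gene, had 0.31 and 0.61 TPM, and Birc3 had 0.58 and 1.68 TPM.

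All 8 genes for outer-membrane partners were detected, with a median of 68.6 and 62.0 TPM, led by the channels Vdac1 at 221.9 and 203.7 TPM and Vdac2 at 96.4 and 89.1 TPM and the import receptor Tomm20 at 82.4 and 78.5 TPM. The 7 that could be compared had a median log2 ratio of -0.10 on TMM-scaled counts and 0.17 on the spike-in scale. All 7 were lower in replicate 2 on TMM-scaled counts and higher on the spike-in scale, so no direction is given for them. All 9 genes listed here under p53 and hypoxia targets and regulators were detected, with a median of 23.7 and 27.5 TPM. The highest were Ywhaz at 539.9 and 497.6 TPM, Pgk1 at 198.7 and 178.9 TPM and Slc2a1 at 30.5 and 33.3 TPM. The list is broad, and a place in it does not show that a gene acts in either pathway. None of the genes compared in these 4 lists differed over 2-fold.

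**Figure D5:**
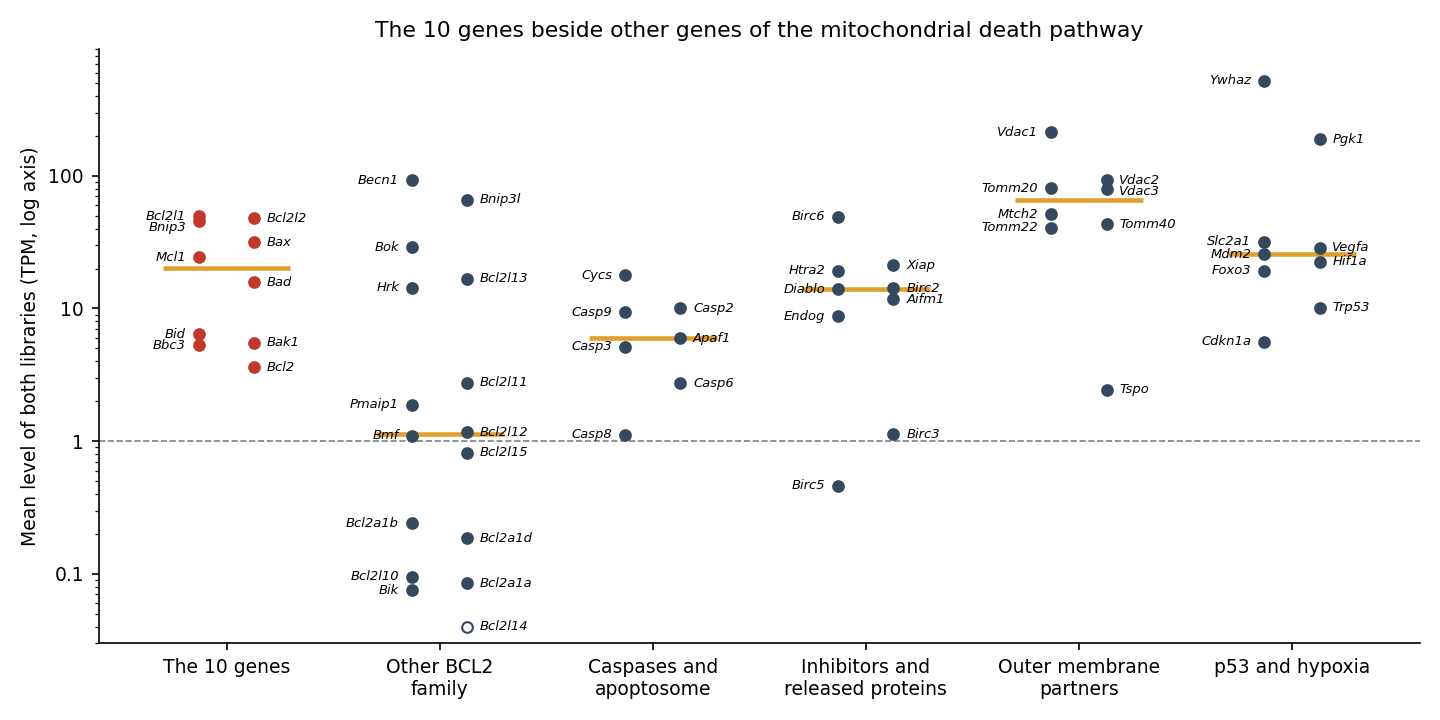
Mean level of both libraries in TPM (log axis) for the 10 genes (red) and for the genes of 5 related lists (dark). Orange lines are medians, the dashed line marks 1 TPM, and the open circle is Bcl2l14, at 0 and drawn at the foot of the axis. The 10 genes lie between 3.62 and 49.5 TPM, while 8 of the 16 other family genes are under 1 TPM in at least 1 library.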

How the data were processed

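Hippocampal total RNA was measured in 2 libraries of 1 group on mouse build mm10 with GENCODE M21, per the README files deposited with the samples. The first quantification, a gene table and a transcript table, holds expected counts as deposited by the authors, in which reads that match several transcripts are shared out. It also gives TPM with lower and upper bounds of unstated level, per the file headers, and for each transcript its percent of the gene's total, as the authors deposited it. A second transcript table holds estimated counts and TPM as deposited from a second quantification. What software made the files, and whether it used the strand, is not given in the sources used here.

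Gene symbols, transcripts and sequences came from GENCODE M21, and all 55536 gene identifiers matched. Entries with a number for a name held 1.23e-05% and 1.62e-05% of the counts in replicates 1 and 2 and were left out of library sizes. Counts were rounded and scaled with edgeR 4.0.16 (TMM, prior count 0.5) in R 4.3.3, and the ratios were tested on simulated data. Python 3.11.15 with pandas 2.3.3 did the rest. Ratios were compared where the mean count reached 100 and called apart over 2-fold. A transcript share is its TPM over the summed TPM of its gene's transcripts. Gene pairs with near-identical transcripts were found with blastn.

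The 10 genes and the lists were chosen with earlier results of these data known. All 10 were named. 1 gene of the lists is not reported here. Of the lists the 3 highest genes, any compared gene over 2-fold apart and those under 1 TPM were named, and of transcripts the leading one in either quantification and any with 10% or more of the gene's TPM in both libraries. Transcripts of smaller share, sums by reading frame, rescaled Bak1 transcript levels and the counts of genes led by decay transcripts were added after their values were seen. Alternatives were DESeq2 1.42.0 size factors, total-count and spike-in scaling, deposited TPM, the second quantification, other minimums and folds, and each library alone.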

Additional observations from a re-analysis of the deposited data

How the results depend on the processing

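The number over 2-fold apart between the quantifications was 0 with TPM rescaled over shared protein-coding genes and 1, Bid, with TPM as deposited. At a detection minimum of 5 TPM, 8 of the 10 genes were detected, against 10 at 1 TPM. Using 1 library at a time gave 10 genes detected and 0 apart between quantifications each time. It gave 8 genes with the same leading transcript each time too, but not the same 8: the exceptions were Bak1 and Bcl2l1 in replicate 1 and Bak1 and Bad in replicate 2. The sign of the ratio between libraries changed with spike-in scaling for Bax, Bcl2, Bcl2l2 and Bnip3, with deposited TPM for Bad, and with the second quantification for Bad and Mcl1, all of them within 1.10-fold in the values given above. Counts as low as 125 limit the precision for Bbc3. No paired analysis was possible because there is a single group, so no 2 groups share replicate numbers.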

Other observations

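Cycs, the gene for cytochrome c, had 18.7 and 16.9 TPM in replicates 1 and 2 in the first quantification, against 210.7 and 179.7 TPM in the second. Tspo, a gene of the mitochondrial outer membrane, had 27 and 54 counts, under the count minimum for comparing libraries, and 1.55 and 3.34 TPM.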
